A study of Mus musculus with 8 samples.

Results

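Ribosome biogenesis factors are the proteins that make ribosomal RNA and build it into the 40S and 60S subunits without being part of the finished ribosome. The 45 genes described here were taken from the mRNA table by gene symbol. They comprise 18 small subunit factors, 13 large subunit factors, 8 proteins of the small nucleolar ribonucleoproteins (snoRNPs) and 6 RNA polymerase I (Pol I) and nucleolar proteins. Entries were joined by symbol, so each member is 1 of the 22481 mRNA genes. All 45 also passed the filter of a mean of at least 0.5 FPKM (fragments scaled to transcript length and library size), which left 12716 mRNAs to be tested.

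The study describes the RNA as that of extracellular vesicles (EVs) released from the left ventricle of male C57BL/6J mice aged 10 weeks. There were 4 mice in the IR group and 4 in the sham group, with 1 library per mouse. In the IR group the left anterior descending coronary artery was ligated for 45 min and reperfused for 24 h, and the sham mice were operated on without that ischemia. The study reports that the ventricles were digested with collagenase, so the EVs may stem from any cell of the tissue that was digested. The mRNA fragments per library ranged from 13824442 to 18501751 in IR and from 15908984 to 22497272 in sham, and a member had 39 to 4985 fragments in a library.

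The labelled tissue was checked against marker genes. Of 15 cardiomyocyte genes, Myl2, Nppa, Mb and Csrp3 had no fragment in any library, and the summed level of the 15 was 2.12 to 3.85 FPKM in IR against 4.13 to 4.72 FPKM in sham. Only Tnnt2 and Pln reached the filter. By contrast, 12 enterocyte genes, which mark the absorptive cells of the intestine, summed to 24343 to 36358 FPKM in IR and 21548 to 26808 FPKM in sham. The defining markers of heart muscle were therefore near 0 in all 8 libraries, and the values below are described as those of the libraries labelled IR and sham.

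Ribosome production starts in the nucleolus, where Pol I transcribes a long precursor that carries the 18S, 5.8S and 28S sequences. The small subunit processome binds its first part, cuts out the 18S precursor and folds it, while other factors assemble the 60S precursor. Box C/D snoRNPs guide ribose methylation and box H/ACA snoRNPs guide pseudouridylation. These genes are known to be expressed most in growing and dividing cells, as targets of the transcription factor Myc, and adult heart muscle divides little.

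All 45 members had a fitted log2 fold change below 0, IR over sham. Among the 12716 mRNAs tested, 50.1% had one. The members' log2 fold changes ran from -0.61 (Rrs1) to -0.071 (Utp3) with a median of -0.34, a 21.2% lower level in IR, and the middle of the list lay between -0.41 and -0.27. The median over all mRNAs tested was near 0 on this scale, and -0.10 in a limma fit of log2(FPKM + 0.1). In the edgeR fit only Rrs1 differed by more than 1.5 times, whereas in the limma fit of log2(FPKM + 0.1), whose median over the members was -0.45, 9 members did. These were Nop56 (-0.87), Gar1 (-0.77), Rrp1b (-0.71), Rrs1 (-0.68), Nob1 (-0.67), Utp15 (-0.64), Wdr75 (-0.63), Nop14 (-0.62) and Nop16 (-0.60), all lower in IR. The share of all mRNAs that differed by more than 1.5 times was not counted in either fit. Genes were called by the thresholds of the study, a fold over 2 and an adjusted p under 0.05, but applied to edgeR and not to the software of the study. By edgeR 0 of 45 members were called, against a background of 0.0% of all mRNAs in either direction. Adjusted p-values of the members ranged from 0.465 to 0.895 (edgeR). At an unadjusted p under 0.05, 9 of 45 members were lower in IR, beside 4.86% of all mRNAs, and 0 were higher, beside 4.87%. This number depended on single libraries, being 20 without IR 4, 3 to 4 without another IR library, 0 without sham 1 and 19 without sham 3. DESeq2 also called 0 members, beside 0.0708% of all mRNAs lower and 0.244% higher, and put 10 members at an unadjusted p under 0.05, all lower, beside 5.02%. This is RNA of a whole fraction that the study describes as cardiac EVs. Fewer EVs that carry a transcript, less of it per EV and other source cells cannot be told apart.

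**Figure D1:**
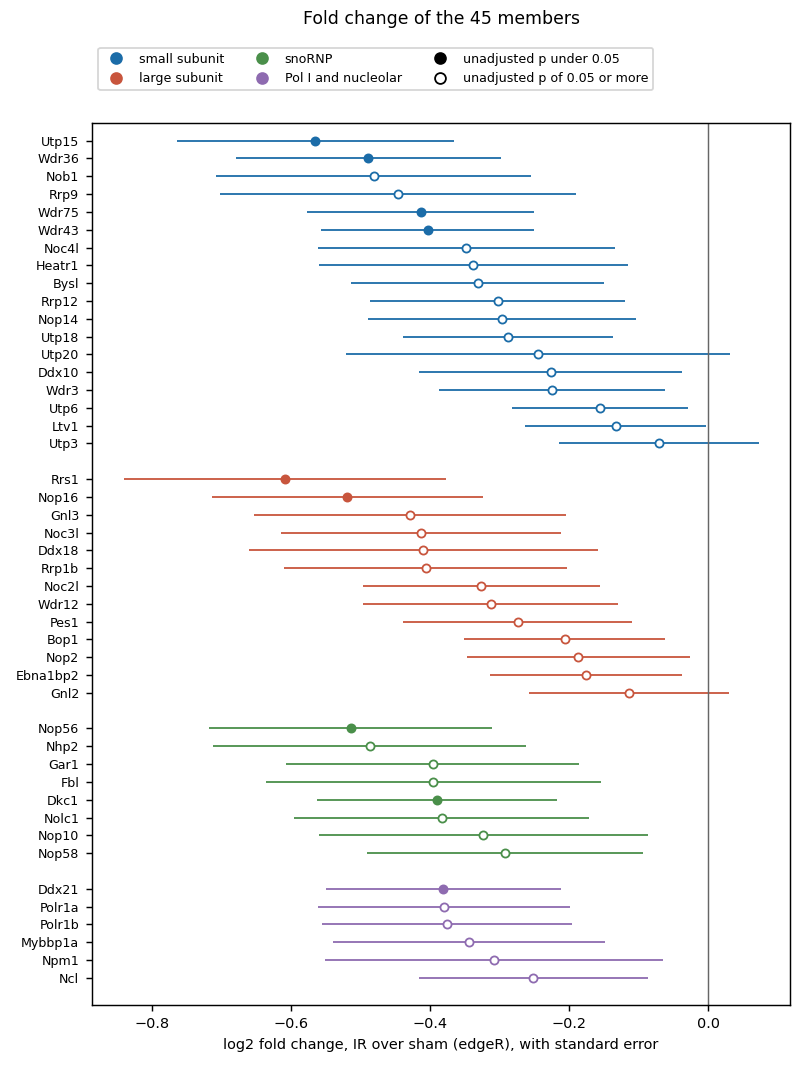
Log2 fold change of each of the 45 members (points, edgeR, IR over sham) with its standard error (lines), grouped by class and sorted. All points lie left of 0, between -0.61 for Rrs1 and -0.071 for Utp3, and the 9 filled points have an unadjusted p under 0.05.

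To show the DNA upstream of members that lay on the same side of 0, the 250 bases before the annotated start are given for 4 of them (RefSeq, GRCm38.p6, 5′ to 3′ on the strand of the gene). Utp15 and Dkc1 are from the 9 members at an unadjusted p under 0.05, and Nop2 and Utp18 are the only ones of the 37 members with a promoter on hand that have an E-box, the motif bound by Myc and its partner Max, in this window. Capitals mark the E-box CACGTG, which reads alike on both strands, the GC-box GGGCGG or its reverse complement CCGCCC, the ETS core CCGGAA or its reverse complement TTCCGG, and the TATA motif TATAAA or its reverse complement TTTATA, and no marked motifs overlap.
Utp15, chr13:98262993-98263242, minus strand: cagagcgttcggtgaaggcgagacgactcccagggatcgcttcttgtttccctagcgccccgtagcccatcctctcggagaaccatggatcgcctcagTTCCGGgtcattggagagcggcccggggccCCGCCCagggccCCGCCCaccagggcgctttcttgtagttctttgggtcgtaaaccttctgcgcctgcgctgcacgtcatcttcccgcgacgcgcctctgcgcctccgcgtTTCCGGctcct
Utp18, chr11:93885767-93886016, minus strand: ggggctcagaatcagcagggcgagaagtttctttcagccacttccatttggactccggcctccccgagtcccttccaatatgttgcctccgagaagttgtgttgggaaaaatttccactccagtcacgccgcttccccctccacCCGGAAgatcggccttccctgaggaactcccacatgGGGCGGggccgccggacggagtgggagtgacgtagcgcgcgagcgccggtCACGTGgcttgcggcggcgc
Nop2, chr6:125131633-125131882, plus strand: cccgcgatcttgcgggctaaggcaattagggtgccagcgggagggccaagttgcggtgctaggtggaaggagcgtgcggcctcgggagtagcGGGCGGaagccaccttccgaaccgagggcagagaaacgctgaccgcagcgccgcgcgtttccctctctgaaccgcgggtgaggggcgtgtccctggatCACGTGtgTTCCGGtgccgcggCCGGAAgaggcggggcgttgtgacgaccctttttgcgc
Dkc1, chrX:75095604-75095853, plus strand: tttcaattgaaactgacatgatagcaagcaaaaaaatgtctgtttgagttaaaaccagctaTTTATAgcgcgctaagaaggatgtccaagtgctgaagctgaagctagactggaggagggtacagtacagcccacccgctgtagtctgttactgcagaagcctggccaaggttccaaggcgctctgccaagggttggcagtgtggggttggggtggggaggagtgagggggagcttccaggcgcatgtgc
The promoter of Utp15 holds 2 GC-boxes and 2 ETS cores, and that of Utp18 1 of each with 1 E-box. That of Nop2 holds 1 GC-box, 2 ETS cores and 1 E-box, whereas Dkc1 holds only a TATA motif. The motif in Dkc1 is the reverse complement and lies nearer to the far end of the window than to the start of the gene.

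The other 8 of the 45 members were not searched. The GC-box was present in 26 of the 37 (70.3%), against 62.8% of 9454 tested genes and 35.4% of all 27025 promoters. The ETS core was present in 14 members (37.8%), against 24.9% of tested genes and 13.6% of all promoters. TATAAA was found in Dkc1 and Pes1 only (5.41%), against 8.26% of tested genes and 14.3% of all promoters. The E-box was present in 5.41% of the members, against 9.77% of tested genes and 6.86% of all promoters. When the first 50 transcribed bases were added to the window, 7 members had it (18.9%), against 11.6% of tested genes and 8.09% of all promoters: Ltv1, Mybbp1a, Nop2, Pes1, Utp18, Utp20 and Wdr43. The median GC content was 58.0% in the members and 60.8% in tested genes. These are counts of letters and no sites of binding were measured.

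Among the 18 small subunit factors the median log2 fold change was -0.32. Of them 4 had an unadjusted p under 0.05, beside 4.86% of all mRNAs lower in IR: Utp15, Wdr36, Wdr75 and Wdr43. Utp15 (chr13:98246845-98262992, GRCm38.p6) belongs to UTP-A, the subcomplex that reaches the nascent precursor first. Utp15 had 15.5, 10.8, 16.4 and 15.3 CPM (fragments scaled to library size and TMM factor) in IR 1 to IR 4, against 29.8, 18.6, 17.8 and 19.5 CPM in sham 1 to sham 4. It was the only member whose IR libraries all lay below the sham libraries, 1 of 45 beside 2.7% of all mRNAs, and sham 1 lay far above the other sham libraries. Its log2 fold change was -0.56 ± 0.20 (SE, edgeR adjusted p = 0.465).

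Wdr43 and Wdr75, the mouse counterparts of yeast Utp5 and Utp17, are further UTP-A subunits. Wdr43 (chr17:71616178-71659031) had 25.6, 21.9, 29.3 and 32.03 CPM in IR against 44.0, 36.2, 30.2 and 33.7 CPM in sham (log2 fold change -0.40 ± 0.15, SE). Wdr75 (chr1:45795153-45823638) had 13.4, 10.1, 12.7 and 13.6 CPM in IR against 20.4, 17.3, 13.3 and 15.4 CPM in sham (-0.41 ± 0.16). In both genes sham 3 was the only sham library within the IR range. By FPKM, Utp15 and Wdr75 were the 2 members with all IR libraries below sham, beside 4.37% of all mRNAs. On neither scale did a member have all IR libraries above sham (0 of 45, beside 2.35% of all mRNAs by CPM and 0.873% by FPKM). Heatr1, the counterpart of yeast Utp10, had a log2 fold change of -0.34 ± 0.22, so 3 of the 4 UTP-A members listed had an unadjusted p under 0.05, beside the 4.86% of all mRNAs, and their median was -0.41. The number was 1 without IR 2, 0 without sham 1 and 2 or 3 without any other library.

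UTP-B, which joins the processome after UTP-A, gave a median of -0.26. Its member Wdr36, the counterpart of yeast Utp21, had 19.02, 18.1, 22.1 and 23.6 CPM in IR against 41.4, 22.5, 26.4 and 25.8 CPM in sham (-0.49 ± 0.19, SE). Only IR 4 reached into the sham range, above sham 2. Utp6 had the highest level of the class, 12 ± 2.67 FPKM in IR and 14.0 ± 2.69 FPKM in sham (SD, n = 4 each). It had 37.8, 36.5, 44.1 and 43.1 CPM in IR against 55.2, 44.8, 39.9 and 40.1 CPM in sham (-0.16 ± 0.13). IR 3 and IR 4 exceeded sham 3 and sham 4, so the groups overlapped widely. Utp18 and Wdr3 had log2 fold changes of -0.29 ± 0.15 and -0.22 ± 0.16.

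The factors of the late 40S precursor were Rrp12, which helps its export, Bysl, Ltv1 and Nob1, the endonuclease that makes the 3′ end of 18S ribosomal RNA. Their median was -0.32 and 0 of 4 had an unadjusted p under 0.05, beside 4.86% of all mRNAs lower in IR. With 4 genes, a count of 0 does not set them apart from that share. Nob1 was the lowest at -0.48 ± 0.23 (SE). Ltv1, with 8.93 ± 1.38 FPKM in IR and 10.5 ± 1.82 FPKM in sham (SD, n = 4 each), had 17.1, 16.4, 18.03 and 19.7 CPM in IR against 23.1, 16.5, 19.96 and 18.5 CPM in sham (-0.13 ± 0.13). Apart from sham 1, the Ltv1 values of the groups could hardly be separated. Of the other small subunit factors, Rrp9, a protein specific to the U3 snoRNP, was at -0.45 ± 0.26, Noc4l and its partner Nop14 were at -0.35 ± 0.21 and -0.30 ± 0.19, Utp20 and the helicase Ddx10 were at -0.24 ± 0.28 and -0.23 ± 0.19, and Utp3 was at -0.071 ± 0.14.

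**Figure D2:**
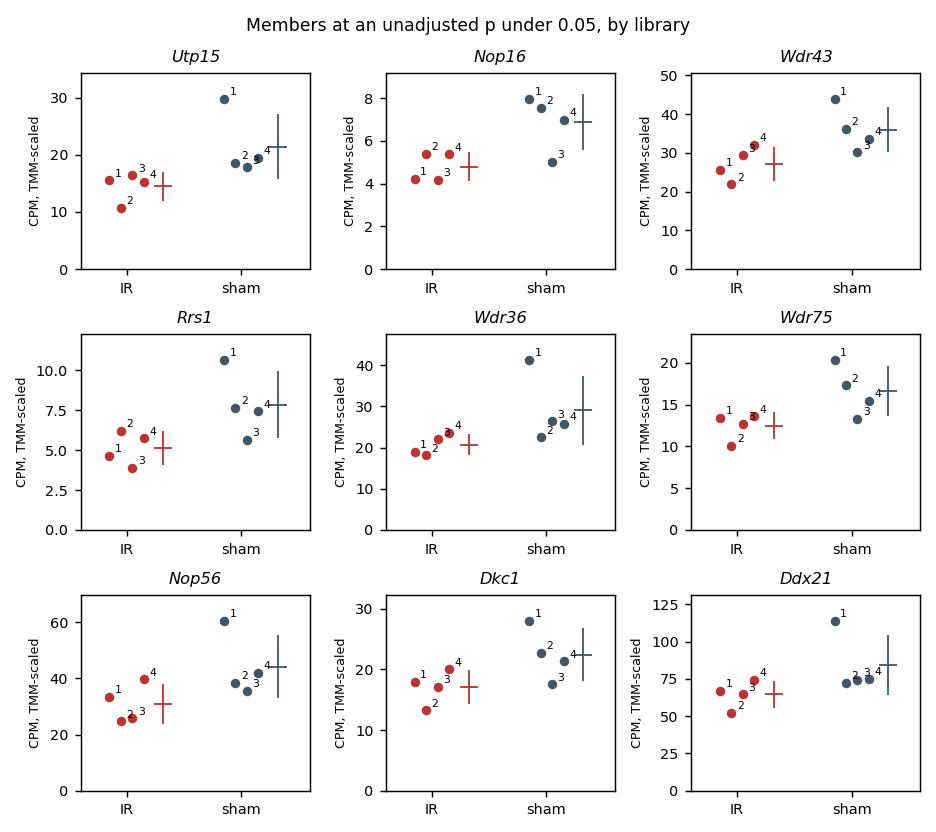
TMM-scaled CPM of the 9 members with an unadjusted p under 0.05 in each library (points numbered by replicate, IR left of sham), with the mean and SD of each group (n = 4, bars). Sham 1 is the highest library in all 9 genes, and only in Utp15, with IR at 10.8 to 16.4 CPM and sham at 17.8 to 29.8 CPM, do the groups not overlap.

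Among the 13 large subunit factors the median log2 fold change was -0.33. Rrs1 and Nop16 had an unadjusted p under 0.05 (2 of 13, beside 4.86% of all mRNAs lower in IR). Rrs1 (chr1:9545408-9547455), which loads the 5S ribonucleoprotein onto the 60S precursor, had 4.67, 6.23, 3.88 and 5.75 CPM in IR against 10.7, 7.67, 5.64 and 7.43 CPM in sham. This was the largest fold change of the 45 (-0.61 ± 0.23, SE), and IR 2 and IR 4 lay above sham 3. Nop16 (chr13:54584191-54590097), a 60S assembly factor, had 4.23, 5.38, 4.16 and 5.36 CPM in IR against 7.96, 7.55, 5.002 and 6.97 CPM in sham (-0.52 ± 0.19). Again sham 3 alone lay within the IR range. Both genes are of low level, and Rrs1 had as few as 56 fragments in a library.

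The large subunit factors of highest level were closer between the groups. Ebna1bp2, the counterpart of yeast Ebp2, was at 15.1 ± 1.76 FPKM in IR and 18.9 ± 5.42 FPKM in sham (SD, n = 4 each), and had 18.8, 17.1, 18.5 and 17.9 CPM in IR against 25.3, 20.9, 16.7 and 18.8 CPM in sham. The GTPase Gnl2 was at 12.7 ± 3.24 FPKM in IR and 14.5 ± 2.31 FPKM in sham, and had 25.6, 21.6, 23.2 and 29.8 CPM in IR against 31.2, 21.6, 28.5 and 27.2 CPM in sham. Their log2 fold changes, -0.17 ± 0.14 and -0.11 ± 0.14 (SE), were within 2 standard errors of 0. Pes1, Bop1 and Wdr12 form the PeBoW complex, which is needed for 28S maturation, and gave -0.27 ± 0.16, -0.21 ± 0.14 and -0.31 ± 0.18. The other 6 were Gnl3 (nucleostemin) at -0.43 ± 0.22, Noc3l and Noc2l at -0.41 ± 0.20 and -0.33 ± 0.17, Ddx18 at -0.41 ± 0.25, Rrp1b at -0.41 ± 0.20 and the 28S cytosine methyltransferase Nop2 at -0.19 ± 0.16.

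The 8 snoRNP proteins had a median of -0.39, the lowest of the 4 classes with all 8 libraries but not without IR 4 (-0.46, against -0.50 for Pol I and nucleolar proteins) nor without sham 1 (both at -0.21), and none of them was nearer to 0 than Nop58 at -0.29 ± 0.20 (SE). Nop56 (chr2:130274367-130279313), with Nop58 a scaffold of box C/D snoRNPs, was at 21.5 ± 7.44 FPKM in IR and 38.8 ± 10.6 FPKM in sham (SD, n = 4 each). It had 33.5, 24.8, 25.8 and 39.8 CPM in IR against 60.7, 38.5, 35.6 and 42.1 CPM in sham (-0.51 ± 0.20). IR 4 alone entered the sham range. On the FPKM scale its log2 fold change was -0.87 (limma). The methyltransferase of these particles, fibrillarin (Fbl), was at -0.40 ± 0.24, with sham 1 at 37.9 CPM and all other libraries between 15.7 and 21.9 CPM.

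Dkc1 (dyskerin, chrX:75095854-75109776), the pseudouridine synthase of box H/ACA snoRNPs, was at 15.4 ± 2.63 FPKM in IR and 22.8 ± 5.57 FPKM in sham (SD, n = 4 each). Its values were 18, 13.3, 17.1 and 20.01 CPM in IR against 28.1, 22.8, 17.5 and 21.3 CPM in sham (-0.39 ± 0.17, SE). Sham 3 lay below IR 1 and IR 4. The dyskerin partners Nhp2, Gar1 and Nop10 were at -0.49 ± 0.23, -0.40 ± 0.21 and -0.32 ± 0.24, and the snoRNP chaperone Nolc1 was at -0.38 ± 0.21. Box C/D and box H/ACA proteins thus had almost equal medians, -0.40 and -0.39. Each had 1 member at an unadjusted p under 0.05 (1 of 3 and 1 of 4, beside 4.86% of all mRNAs lower in IR).

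The 6 Pol I and nucleolar proteins had a median of -0.36. Only the nucleolar helicase Ddx21 (chr10:62580247-62602298) had an unadjusted p under 0.05 (1 of 6, beside 4.86% of all mRNAs lower in IR). It had 66.9, 52.3, 64.6 and 74.6 CPM in IR against 114, 72.5, 74.6 and 75.1 CPM in sham (-0.38 ± 0.17, SE). Without sham 1 the remaining sham libraries were within 72.5 to 75.1 CPM, and IR 4 was level with them. Polr1a and Polr1b, which form the catalytic core of Pol I, were at -0.38 ± 0.18 each, and Mybbp1a was at -0.34 ± 0.20.

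Nucleophosmin (Npm1), a nucleolar chaperone, had the highest level of all members, 95.3 ± 35.1 FPKM in IR and 127 ± 43.6 FPKM in sham (SD, n = 4 each), and made up 22.8% of the members' summed FPKM. It had 122.7, 91.2, 129.8 and 184.9 CPM in IR against 236.0, 143.1, 131.8 and 143.3 CPM in sham (-0.31 ± 0.24, SE), and IR 4 exceeded every sham library but sham 1. Nucleolin (Ncl) was at 19.1 ± 4.75 FPKM in IR and 24.4 ± 5.60 FPKM in sham, and had 204, 170, 158 and 234 CPM in IR against 288, 205, 193 and 225 CPM in sham (-0.25 ± 0.16). In both genes the difference was under 2 standard errors. Npm1 has processed pseudogenes, so its fragments may be shared between copies.

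The 4 classes had similar fold changes. With all 8 libraries their medians lay between -0.39 for snoRNP proteins and -0.32 for small subunit factors, and the ranges overlapped: -0.56 to -0.071 for small subunit, -0.61 to -0.11 for large subunit, -0.51 to -0.29 for snoRNP and -0.38 to -0.25 for Pol I and nucleolar proteins. No difference between classes was tested. Across the 45 members, Spearman's rho between the log2 fold change and log2 of the mean FPKM was 0.28, a description over genes of the same libraries. In the deposited annotation 40 of the members were assigned to the nucleolus, against 3.04% of all mRNA genes, and 2 to the extracellular exosome, against 11.2%. The members were chosen as ribosome biogenesis factors, so their share at the nucleolus follows from that choice.

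The pattern over the libraries was shared by nearly all members. IR 2 was the lowest of the 8 libraries in 28 of 45 members, against 17.9% of all mRNAs. Sham 1 was the highest in 44 of 45, against 23.9% of all mRNAs, and the exception was Gar1, which was highest in sham 4. The median deviation of the members from their own mean was -0.13, -0.37, -0.18 and 0.11 on the log2 scale in IR 1 to IR 4, and 0.53, 0.13, -0.11 and 0.076 in sham 1 to sham 4. IR 4 was above sham 2 in 19, above sham 3 in 36 and above sham 4 in 25 of 45 members, and no IR library was above sham 1 in any member.

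**Figure D3:**
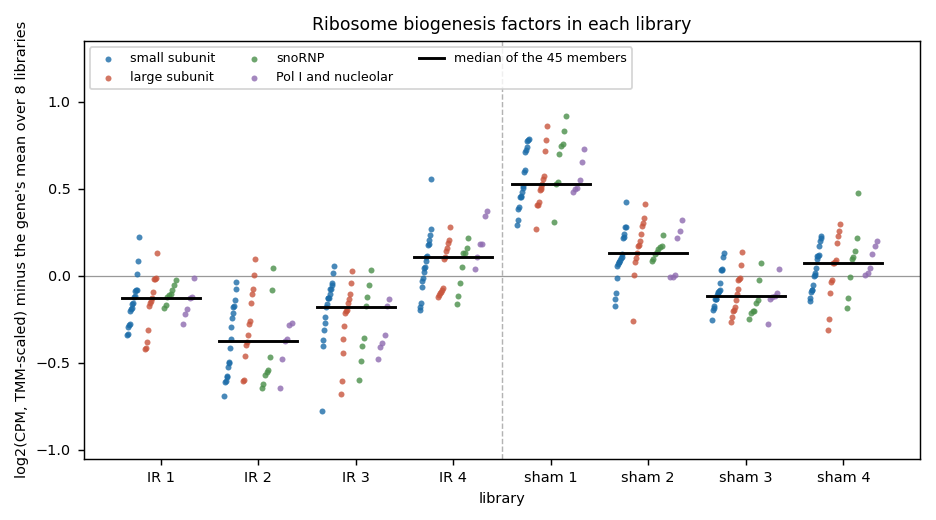
Each point is 1 member in 1 library, given as log2 of the TMM-scaled CPM minus the mean of that gene over the 8 libraries, with colours for the 4 classes and a bar for the median of the 45. The median is lowest in IR 2 (-0.37) and highest in sham 1 (0.53), and IR 4 (0.11) stands above sham 3 (-0.11).

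Results that rest on sham 1 were therefore also computed without it. The class medians were then -0.17 for small subunit, -0.16 for large subunit, -0.21 for snoRNP and -0.21 for Pol I and nucleolar proteins, and 44 of 45 members stayed below 0, beside 47.9% of all mRNAs. Utp3 was at 0.023. No member was left at an unadjusted p under 0.05 (0 of 45, beside 3.52% of all mRNAs, edgeR). UTP-A then had a median of -0.29. Without IR 4 the opposite was seen: 20 of 45 members had an unadjusted p under 0.05, beside 6.01% of all mRNAs, and in 14 members the groups did not overlap, beside 6.75%. Leaving out sham 3 gave 19 members, beside 5.36%, and 11 without overlap, beside 4.91%. Leaving out IR 1, IR 2 or IR 3 gave 4, 3 and 3 members, beside 3.42%, 3.25% and 3.44%. Leaving out sham 2 gave 6 members, beside 5.85%, and leaving out sham 4 gave 10, beside 3.73%. No member passed the adjusted threshold in any of these fits.

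**Figure D4:**
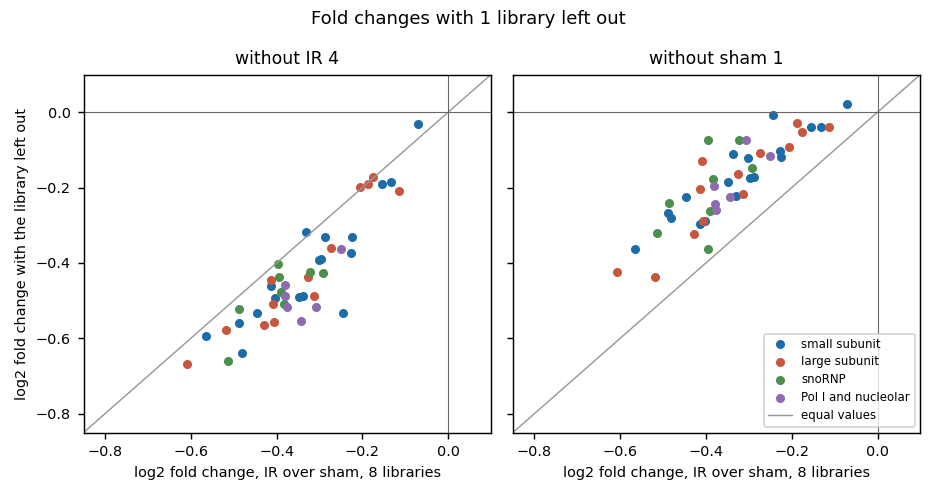
Log2 fold change of the 45 members (points, coloured by class) in fits of 7 libraries against the fit of all 8, without IR 4 on the left and without sham 1 on the right, with the line of equal values. Without IR 4 most points lie below the line (median -0.46), and without sham 1 all lie above it (median -0.18) with Utp3 at 0.023.

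Other ribosome biogenesis genes, 104 in number, were less far from 0. Their median log2 fold change was -0.24, and 96 of 104 were below 0, beside 50.1% of all mRNAs. At an unadjusted p under 0.05, 12 of 104 were lower in IR and 0 higher, beside the 4.86% and 4.87% of all mRNAs given above. Without sham 1 it was 7 of 104, beside 3.52%. Among the 12 were Cirh1a, which is UTP-A subunit Utp4, at -0.50 ± 0.16 (SE), and Tsr1, a GTPase-like late 40S factor, at -0.60 ± 0.16. Lsg1, a GTPase of the cytoplasmic 60S precursor, was at -0.42 ± 0.13. The others were Tbl3, Nol10, Nle1, Ddx31, Ppan, Wdr74, Urb1, Urb2 and Polr1d. By class, 4 of 40 further small subunit, 7 of 41 large subunit, 0 of 11 snoRNP and 1 of 12 Pol I genes were at that level.

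The 76 cytosolic ribosomal proteins, the building blocks that the factors assemble, had a median log2 fold change of -0.43. All 76 were below 0, beside 50.1% of all mRNAs, and 57 were lower at an unadjusted p under 0.05, beside 4.86%. Without sham 1 the median was -0.33 and 18 were at that level, beside 3.52%. Many of these genes have near-identical pseudogenes that could share fragments. Of 7 regulators tested, 2 were lower and 1 higher at an unadjusted p under 0.05, beside 4.86% and 4.87% of all mRNAs. Myc, a known activator of ribosome biogenesis genes, had 9.04, 5.87, 6.45 and 7.13 CPM in IR against 10.3, 12.3, 9.13 and 11.7 CPM in sham. By CPM all IR values were below all sham values (-0.61 ± 0.17, SE, edgeR adjusted p = 0.455), and without sham 1 Myc was at -0.63. Mycl was at -0.57 ± 0.14 and Mdm2 at 0.27 ± 0.11, also without overlap by CPM, which 2.7% of all mRNAs lower and 2.35% higher in IR showed. By FPKM the groups overlapped for Myc and Mdm2 and did not for Mycl. Max and Mxd1 were at 0.083 ± 0.15 and 0.17 ± 0.21. Of all 7 regulators, which include Mxd4 and Trp53, 3 were below 0 and 4 above.

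The levels of markers of other cells also varied between these libraries. By edgeR 0 genes of the crypt, enterocyte and lymphocyte lists below had an adjusted p under 0.05. By DESeq2 1, 1 and 3 of them had, beside 78 of all mRNAs. The members summed to 311 to 551 FPKM in IR and 435 to 789 FPKM in sham, with IR 2 lowest and sham 1 highest. A list of 14 intestinal crypt and proliferation genes summed to 191 to 323 FPKM in IR and 272 to 537 FPKM in sham. This list was likewise lowest in IR 2 and highest in sham 1. Of its genes 13 were below 0, beside 50.1% of all mRNAs, and 2 were lower at an unadjusted p under 0.05, beside 4.86%. Without sham 1 its median log2 fold change was -0.10 instead of -0.38, and 10 of 14 were below 0, beside 47.9%. Of the 12 enterocyte genes 11 were above 0, beside 6340 of the 12716 mRNAs tested, and their sum was highest in IR 2. At an unadjusted p under 0.05, 6 of the 12 were higher, beside 4.87% of all mRNAs. The 11 lymphocyte genes tested, of 14 listed, were all above 0, and 7 were higher at an unadjusted p under 0.05, beside 4.87%. The 13 lymphocyte genes with an entry, tested or not, summed to 455 to 893 FPKM in IR and 190 to 745 FPKM in sham. The part of these cell types in the values of the ribosome biogenesis factors was not tested.

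**Figure D5:**
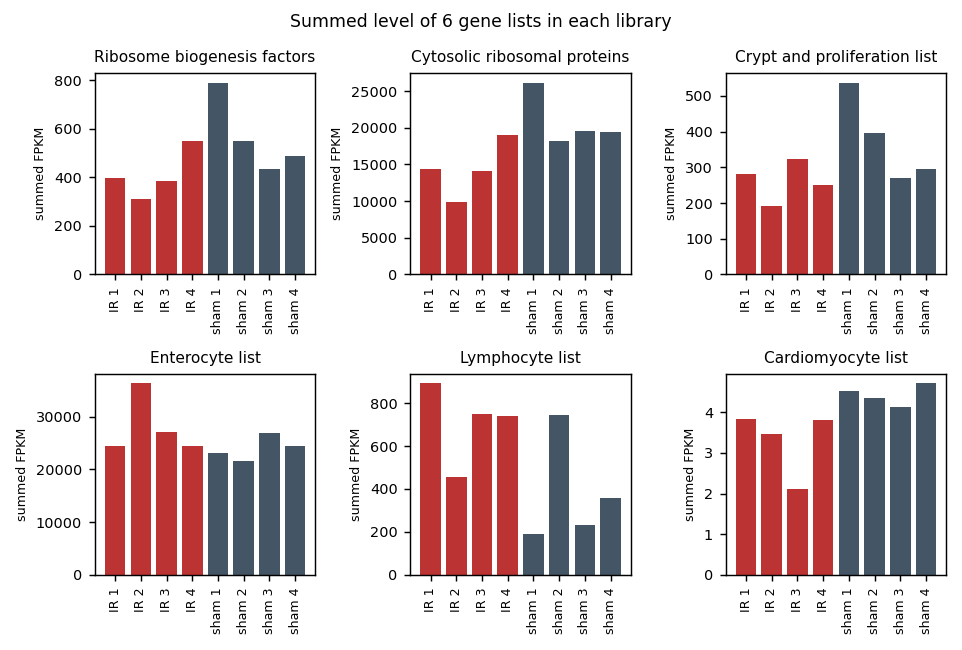
Summed FPKM of 6 gene lists in each library (bars, IR in red and sham in grey-blue). The ribosome biogenesis factors are lowest in IR 2 (311 FPKM) and highest in sham 1 (789 FPKM), as are the ribosomal proteins and the crypt and proliferation list, while the enterocyte list is highest in IR 2 and the cardiomyocyte list stays below 5 FPKM.

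Entries of the lncRNA table at the members' loci were few and shallow. There were 21, at 15 members: 7 overlapped exons in sense, 7 were natural antisense, 5 bidirectional, 1 lay in an intron in sense and 1 in an intron antisense. No fragment was counted for 4 of them, and 16 had at most 50 fragments over all libraries. The 4 that reached 0.5 FPKM were AK140094 at Fbl (log2 fold change 0.25 ± 0.23, SE), uc007pll.1 at Heatr1 (-0.42 ± 0.41), uc029tif.1 at Bysl (-0.30 ± 1.05) and uc029ssk.1 at Bop1 (-0.97 ± 0.91). At an unadjusted p under 0.05 stood 0 of 4, beside 2.75% (lower) and 4.31% (higher) of 3088 lncRNAs. As the strand setting of the counting is not given in the sources used here, a member and its overlapping lncRNA may share fragments.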

How the data were processed

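RNA described by the authors as that of cardiac EVs of 4 IR and 4 sham mice was sequenced by them. The libraries were stranded, paired-end and depleted of rRNA. Adaptors were cut by the authors with cutadapt 1.9.3, HISAT2 gave alignments to mm10, and Cuffdiff gave levels. The annotation and the strand setting are not given in the sources used here. The FPKM values were deposited by the authors as Cuffdiff made them. The estimated counts were deposited by the authors multiplied by 1 factor per library. Each was therefore divided by the most frequent mRNA value of its library, taken as 1 fragment, and rounded. Before rounding, 90.6% to 91.0% of mRNA values were whole within 0.02. Of lncRNA values, divided in the same way, only 67.1% to 68.6% were whole, so their fragments are less exact. Entries with 1 symbol and different values were summed (70 genes). No value column was left unmapped.

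IR and sham libraries were compared with edgeR 4.0.16 (TMM, robust quasi-likelihood F test, two-sided, R 4.3.3) over all 12716 mRNAs whose mean reached 0.5 FPKM, adjusted over all of them by Benjamini-Hochberg, with the thresholds of the study. The biological coefficient of variation was 22.0%. Standard errors are approximate (size of the log2 fold change over the root of F). Alternatives were DESeq2 1.42.0, median-ratio scaling, limma 3.58.1 on log2(FPKM + 0.1) or log2(FPKM + 1), no filter, no fold criterion, a replicate block and each library left out. Promoters were from RefSeq (GRCm38.p6).

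The members, the lists and the tests were chosen with earlier results of these data known, and the ribosomal proteins were taken by symbol later. Given in every library are the members at an unadjusted p under 0.05, those whose groups do not overlap and the 2 of highest mean FPKM in each class. Of the other ribosome biogenesis genes, those at an unadjusted p under 0.05 are named, and of the lncRNAs those at members' loci.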

Additional observations from a re-analysis of the deposited data

Results flagged for a closer look

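Of 90 sets of 4 libraries (45 members, IR and sham), 8 held a library whose gap to its nearest neighbour, divided by the range of the 4, was above Dixon's critical value for 4, which chance exceeds in about 1 in 20 sets. In 4 of the 8 the library was sham 1, the highest of the sham group: Utp15 (0.856), Wdr12 (0.897), Npm1 (0.889) and Ddx21 (0.937). IR 4 was the highest of its group for Wdr12 (0.933) and Mybbp1a (0.863). For Bysl IR 3 was the highest of its group (0.834), at 7.35 CPM beside 6.67 to 6.78 CPM in the others. For Nhp2 IR 2 was the lowest of its group (0.851), at 7.52 CPM beside 10.6 to 11.2 CPM in the others.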

How the results depend on the processing

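The direction of every member was the same in all 14 alternatives except Utp3, whose log2 fold change ran from -0.16 to 0.023 with 1 library left out and was above 0 only without sham 1. DESeq2 called 9 mRNAs lower and 31 higher in IR, against 0 in edgeR, none of them a member. With 1 library left out, edgeR called 0 to 1 mRNAs lower and 0 to 3 higher. The members at an unadjusted p under 0.05 and lower in IR numbered 0 to 20 with 1 library left out, beside 3.25% to 6.01% of all mRNAs. They were 20 without IR 4 and 0 without sham 1, beside 6.01% and 3.52%. The members whose groups do not overlap numbered 2 on the FPKM scale with either pseudocount, beside 4.37% of all mRNAs. With 1 library left out they numbered 1 to 14. There were 14 without IR 4, beside 6.75%, and 11 without sham 3, beside 4.91%. This share was not counted for the other libraries left out. Class medians kept their direction under all alternatives. The cause of these shifts was not tested.

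The labels state no pairing of the mice, and no sign of a pairing by replicate number was seen. The same-numbered libraries deviated from their group means with correlations of -0.17, -0.35, -0.00425 and 0.0518, and no library correlated best with its own number. With 4 libraries per group, such correlations cannot exclude a pairing. With the replicate block 7 members, 1 of them of UTP-A, had an unadjusted p under 0.05, beside 3.85% of all mRNAs, and 0 mRNAs were called.

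The fewest fragments of a member in a library were 39, and the shares of counting error and of the spread between mice in these differences were not separated. In the edgeR fit 44 of 45 members differed by less than 1.5 times, where a call needs a fold of 2. On the FPKM scale 9 members differed by more than 1.5 times with a pseudocount of 0.1 and 2 with a pseudocount of 1. In these FPKM fits the median over all mRNAs was itself below 0, at -0.10 and -0.087. The share of all mRNAs past 1.5 times was not counted in any fit.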
